A study of Mus musculus with 28 samples.

Results

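Wdr82 was knocked down in mouse macrophages, and their polyA RNA was sequenced after 4 h of lipopolysaccharide (LPS), a component of the bacterial outer membrane that macrophages sense through Toll-like receptor 4. The comparison holds 2 of the 28 libraries of the series, 1 on each side. The knockdown cells carried sh1137, a short hairpin against Wdr82 delivered by a retroviral vector, and the control cells carried the empty vector, LMP. The macrophages were differentiated from bone marrow of FVB/Hsd mice, grown with L929-conditioned medium, infected with the retrovirus, selected with puromycin and used on day 7 of differentiation. Both libraries received LPS at 10 ng/ml for 4 h. The same cells without LPS gave a second polyA pair, and newly made RNA labelled with 4-thiouridine (4sU) for 45 min gave a second pair at 4 h of LPS. No library is shared between these 3 pairs. A single hairpin was set against a vector without a hairpin, so the loss of Wdr82 and the presence of a hairpin cannot be told apart. The labels do not give the age or sex of the mice or say how many gave marrow, and they do not say whether the libraries came from separate cultures.

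Wdr82 is a WD40-repeat protein. It is a subunit of the Set1A and Set1B complexes, which methylate histone H3 on lysine 4 at promoters, and of the PTW/PP1 complex, a phosphatase built from Pnuts (encoded by Ppp1r10), Tox4, Wdr82 and a PP1 catalytic subunit. It also binds ZC3H4, and these complexes are known for ending RNA polymerase II transcription early at extragenic and short transcripts. In macrophages, LPS sets off NF-kB and interferon regulatory factor signalling, which switches on cytokines, chemokines and, through secreted interferon beta, the interferon-stimulated genes.

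The ratio of sh1137 to LMP was taken on log2(FPKM + 1), where FPKM, the deposited unit, relates the fragments of a gene to its transcript length and to the size of the library. A pseudocount of 1 understates the change of genes with low values. Genes were tested if either library had at least 1 FPKM. Among 12074 such genes, 433 (3.59%) reached 2-fold upwards with sh1137 and 344 (2.85%) reached 2-fold downwards. With 1 library a side there is no p for this pair. The authors' deposited lower and upper bounds did not overlap for 74 of the higher and 11 of the lower genes. Once entries named as small RNAs, clones or predictions were set aside, the counts were 281 and 258. Of the higher genes 54 were listed at 0 in the control, and of the lower genes 39 were listed at 0 with sh1137. All 20 entries with a higher ratio than Lrrc27 and the 23 entries with the lowest ratios were such zeros with small RNA, clone or predicted names, and the extremes described here are those of the genes with other names and at least 5 FPKM. The median log2 ratio over all genes was -0.10, and ratios centred on it gave 532 higher and 272 lower genes, so that higher genes made up 66.2% of the calls in place of 55.7%. The genes with at least 5 FPKM held 245 higher and 311 lower ones. In the untreated polyA pair 341 of 12050 genes (2.83%) were higher and 311 (2.58%) lower by the same measure. In the 4sU pair at 4 h, 907 of 14016 genes (6.47%) were higher and 453 (3.23%) lower. The number of reads is unknown. The commonest ratio among low FPKM values, which moves with depth, put the sh1137 library at 1.08 times the depth of the control. In the untreated polyA pair the same measure put sh1137 at 1.59 times the depth of its control, and its part in the untreated ratios was not tested.

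**Figure D1:**
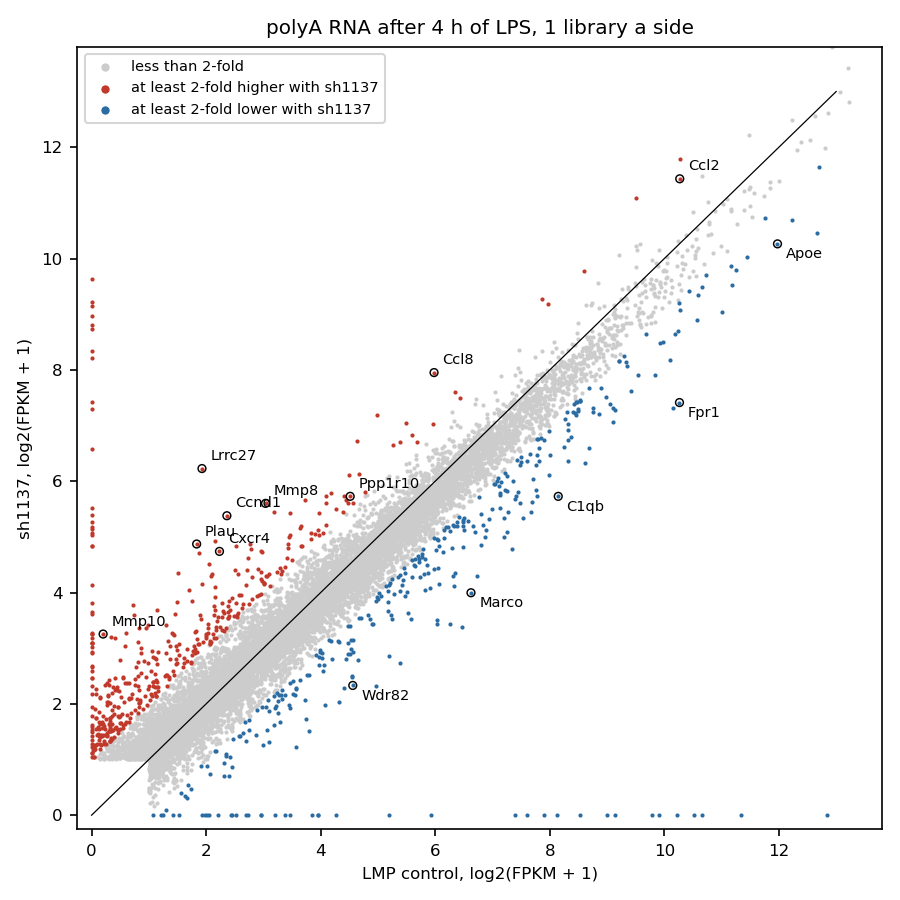
Each point is a gene tested in polyA RNA after 4 h of LPS, by its log2(FPKM + 1) in the LMP control (horizontal) and with sh1137 (vertical), 1 library a side. Red points (433) are at least 2-fold higher and blue points (344) at least 2-fold lower with sh1137, and the line marks equal values. The higher genes sit mostly at the low end of the control axis, and lower genes such as Fpr1 and Apoe reach its high end.

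Wdr82 was measured at 22.6 FPKM in the control and 4.03 FPKM with sh1137 after LPS, and at 16.8 and 3.71 FPKM in untreated cells. Its log2 ratio was -2.23 after LPS and -1.92 without it, and the deposited bounds after LPS, 6.82 to 38.4 FPKM in the control and 1.34 to 6.71 FPKM with sh1137, did not overlap. Its 4sU values at 4 h were 32.5 and 16.2 FPKM, a log2 ratio of -0.96. The gene lies at chr9:106073259-106094747 in mm9, and its deposited locus also holds Mirlet7g, a microRNA gene. The targeted gene was lower in the library labelled as knockdown in each pair.

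Among the PTW/PP1, Set1 and ZC3H4 partners of Wdr82 that were tested, only Ppp1r10 was past 2-fold. This gene encodes Pnuts, the scaffold of the PTW/PP1 complex, and was at 21.9 FPKM in the control and 52.0 FPKM with sh1137 after LPS, a log2 ratio of 1.21. It was higher in untreated cells as well (9.54 and 30.9 FPKM), and in 4sU RNA its values were 102 and 195 FPKM. Its deposited locus holds 2 genes. The other members, Tox4 and the PP1 catalytic subunits Ppp1ca, Ppp1cb and Ppp1cc, had log2 ratios from -0.37 to -0.10. Of the 9 Set1 COMPASS genes tested, none was past 2-fold, where 3.59% of all genes were higher and 2.85% lower. Setd1a, a catalytic subunit, was at 8.48 FPKM in the control and 7.68 FPKM with sh1137, and Cxxc1, the subunit that binds unmethylated CpG, at 18.7 and 18.3 FPKM. Zc3h4 was at 22.9 FPKM in the control and 41.0 FPKM with sh1137 (log2 ratio 0.81), with the same log2 ratio in untreated cells. None of the 17 genes of the ZC3H4 and RNA exosome list was past 2-fold. Among 24 cleavage, polyadenylation and termination genes only Ints3, an Integrator subunit, was past 2-fold, at 6.86 FPKM in the control and 17.5 FPKM with sh1137.

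Among genes with other names, the 15 lowest ratios included receptors, inflammatory genes, a transcriptional repressor and metabolic genes. Ccr2, the receptor for Ccl2 on monocytes, was at 18.9 FPKM in the control and 3.08 FPKM with sh1137. It was lower without LPS as well, at 50.5 and 7.03 FPKM. The chemokine receptor genes Ccr1, Ccr3, Ccr9 and Ccrl2, on chromosome 9 as Ccr2 is, did not reach 2-fold, with log2 ratios from -0.52 to 0.98. Cd72, a lectin-like inhibitory receptor, was at 390 FPKM in the control and 78.9 FPKM with sh1137. The Cd72 bounds were wide and overlapped.

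Receptors for formyl peptides, which guide phagocytes to bacteria, were at least 2-fold lower for each of the 3 genes tested. Fpr1 was at 1228 FPKM in the control and 169 FPKM with sh1137 after LPS, against 75.9 and 23.2 FPKM in untreated cells. LPS thus went with a higher level in both kinds of cell, and the log2 ratio went from -1.67 without LPS to -2.85 with it. Its deposited bounds overlapped, running from 1.53 to 2491 FPKM in the control. Fpr2 (1097 and 287 FPKM) and Fpr3 (22.4 and 4.59 FPKM) share a deposited locus on chromosome 17. Their log2 ratios after LPS were -1.93 and -2.06. Fpr2 and Fpr3 were chosen for the family after their values were seen. The 4 remaining Fpr genes of the cluster had under 1 FPKM in both libraries and were not tested. In 4sU RNA the log2 ratios of Fpr1, Fpr2 and Fpr3 were -1.49, -1.44 and -1.77.

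Several of the lowest ratios belonged to genes that LPS switches on. Ptges, the prostaglandin E2 synthase, was near 1 FPKM in both untreated libraries (1.22 and 1.13 FPKM), and after LPS was at 75.5 FPKM in the control and 9.81 FPKM with sh1137. Mefv, which encodes pyrin, an inflammasome sensor, was at 40.9 FPKM in the control and 5.67 FPKM with sh1137 after LPS and under 1 FPKM without it. Gfi1, a transcriptional repressor of myeloid cells, was at 10.9 and 1.34 FPKM after LPS and at 0.0725 and 0.0654 FPKM without it. Slc28a2, a nucleoside transporter, was at 105 and 18.7 FPKM after LPS and at 5.90 and 3.44 FPKM without it. The untreated log2 ratios were -0.06 for Ptges and -0.64 for Slc28a2, both under 2-fold. Those of Mefv (-0.14) and Gfi1 (-0.01) were not tested. Both genes were under 1 FPKM without LPS, where the pseudocount of 1 holds a ratio near 0. Ptges was little above that minimum. Newly made RNA of Ptges at 4 h was at a like ratio (76.5 and 11.1 FPKM), while Mefv was at 20.8 and 15.5 FPKM. Marco, a scavenger receptor that binds bacteria, was at 97.6 FPKM in the control and 15.0 FPKM with sh1137, with bounds that did not overlap. Cmklr1, the receptor for chemerin, was at 64.2 and 10.4 FPKM.

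The complement list held genes of complement, whose products tag microbes and dead cells for uptake, and of coagulation. Of 22 complement and coagulation genes tested, 7 were at least 2-fold lower and 4 at least 2-fold higher, and the median log2 ratio was -0.38. The shares over all genes were 2.85% and 3.59%. The 3 chains of C1q, which starts the classical pathway and is made by macrophages, were all lower. C1qa was at 145 FPKM in the control and 39.5 FPKM with sh1137. C1qb was at 283 and 52.0 FPKM, and C1qc at 329 and 111 FPKM. The 3 genes were lower to a like extent in untreated cells, with log2 ratios of -2.02, -2.41 and -1.65. Their 4sU values at 4 h were 22.7 and 28.7 FPKM (C1qa), 40.5 and 45.9 FPKM (C1qb) and 42.6 and 48.4 FPKM (C1qc), so that newly made C1q RNA was slightly above the control. C1qc was named after its values were seen. Cfb, a factor of the alternative pathway, was at 215 FPKM in the control and 56.6 FPKM with sh1137, and C3ar1, the receptor for C3a, at 563 and 155 FPKM. The higher members were Plau, the urokinase plasminogen activator (2.57 and 28.3 FPKM), the clotting factor genes F7 (0.192 and 2.33 FPKM) and F10 (7.59 and 19.2 FPKM), and Serping1, the C1 inhibitor (0.0869 and 1.76 FPKM). F7, F10 and Serping1 were named after their values were seen.

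The promoters of C1qb and C1qc are shown because the C1q genes lie together on chromosome 4 and were lower together. They are the RefSeq windows from 250 bases before to 50 bases after the start site in build GRCm38.p6, which is not the mm9 of the deposited loci. C1qa had no entry. Capitals mark GAGGAAGT on either strand, a motif bound by PU.1, the main transcription factor of macrophages.
C1qb, chr4:136886151-136886450, minus strand: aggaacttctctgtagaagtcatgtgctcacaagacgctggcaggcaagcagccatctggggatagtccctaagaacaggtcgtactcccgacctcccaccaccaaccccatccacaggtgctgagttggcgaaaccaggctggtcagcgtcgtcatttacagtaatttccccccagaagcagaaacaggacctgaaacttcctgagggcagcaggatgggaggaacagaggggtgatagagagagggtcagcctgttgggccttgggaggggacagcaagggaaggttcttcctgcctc
C1qc, chr4:136892865-136893164, minus strand: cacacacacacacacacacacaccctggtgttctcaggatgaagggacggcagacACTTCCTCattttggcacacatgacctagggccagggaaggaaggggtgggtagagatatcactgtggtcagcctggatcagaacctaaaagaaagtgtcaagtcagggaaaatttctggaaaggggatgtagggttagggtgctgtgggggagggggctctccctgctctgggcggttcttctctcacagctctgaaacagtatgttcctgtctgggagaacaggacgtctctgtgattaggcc
The motif was present in the window of C1qc, from base -195 to the start site, and not in that of C1qb. Of all 32851 promoter windows 3.20% held it. Among the 12 of the 15 lowest genes with an entry, 1 held it (Cd72), and among the 12 of the 15 highest with an entry, 1 did (Mmp8). A gene counted if any of its windows held it, while the 3.20% is a share of windows.

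Many genes that mark macrophages were at least 2-fold lower in the knockdown. Of 24 genes of the macrophage identity list that were tested, 11 were at least 2-fold lower and 0 at least 2-fold higher. Over all genes 2.85% were lower and 3.59% higher. The median log2 ratio of the list was -0.86 against -0.10 over all genes. Aif1, which encodes the actin-binding protein Iba1, was at 203 FPKM in the control and 42.4 FPKM with sh1137. Fcgr1, the high-affinity IgG receptor, was at 679 and 195 FPKM, Mpeg1, the pore-forming perforin-2, at 2313 and 732 FPKM, and Lyz1, a lysozyme, at 4797 and 1647 FPKM. Csf1r, the receptor for the growth factor that L929 medium supplies, was at 1166 and 401 FPKM, and Emr1, the F4/80 antigen, at 1229 and 538 FPKM. Both were named after their values were seen. Fcer1g (1894 and 1842 FPKM) and Fcgr4 (165 and 167 FPKM), a signalling chain and a receptor for IgG, were almost equal. In untreated cells 8 list members were at least 2-fold lower, and the median was -0.58. In the 4sU pair the median was -0.16 with 2 genes lower. Lyz2 and Fcgr3 had no usable estimate in the control. In bulk RNA, fewer cells of a type and less RNA per cell cannot be told apart.

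Markers of other cell types ranged from lists mostly under 1 FPKM to lists that were well expressed. Of 18 lymphocyte markers 13 were under 1 FPKM in both libraries, and Cd3e, Cd3g, Gzma, Ncr1, Nkg7 and Trbc2 were listed at 0 in both. The summed level of that list was 84.1 FPKM in the control and 53.8 FPKM with sh1137. Of 11 mast cell and basophil markers 10 were under 1 FPKM, with Cpa3, Fcer1a, Mcpt4, Prss34 and Tpsb2 at 0, and the sum was 20.4 and 52.7 FPKM, nearly all of it Hdc, the histamine-forming enzyme. Of 17 neutrophil markers 9 were under 1 FPKM, none was at 0 in both, and the sum was 253 and 151 FPKM. The 16 stromal and endothelial markers (10 under 1 FPKM, Thy1 at 0) summed to 26.5 and 36.5 FPKM, and the 14 erythroid and megakaryocyte markers (11 under 1 FPKM, Alas2 and Gata1 at 0) to 81.2 and 140 FPKM. Of the 19 MHC class II and dendritic cell markers 4 were under 1 FPKM in both, and the list summed to 763 and 808 FPKM. Their part in the results was not tested. Members past 2-fold went both ways. Among lymphocyte markers Lck, a Src-family kinase of T cells, was at 3.31 FPKM in the control and 19.2 FPKM with sh1137. Ighm, the heavy chain of IgM, held most of that list's sum and was at 69.2 and 25.4 FPKM. Among neutrophil markers Csf3r, the receptor for G-CSF, was at 59.2 and 15.9 FPKM, Lcn2, an iron-sequestering protein, at 139 and 54.0 FPKM, and Mmp8 was higher. Txk, a Tec-family kinase of T cells, was at 0.493 and 7.20 FPKM, with bounds that did not overlap. Cdh5, the cadherin of endothelial junctions, was at 0.503 and 4.20 FPKM.

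Scavenger and lectin receptors, with which macrophages take up particles and sugars, were past 2-fold mainly on the lower side. Of 24 tested, 6 were at least 2-fold lower and 1 at least 2-fold higher, with a median log2 ratio of -0.48. The shares over all genes were 2.85% and 3.59%. Beside Marco, Stab1, a scavenger receptor, was at 205 FPKM in the control and 48.3 FPKM with sh1137. The C-type lectin Clec10a was at 122 and 38.8 FPKM. Among the Toll-like receptor pathway genes, 5 of 23 were at least 2-fold lower and 0 higher. Tlr1, a receptor for lipopeptides, was at 80.3 and 19.5 FPKM, and Tlr8, an RNA sensor, at 152 and 42.3 FPKM. Tlr4, the LPS receptor, was at 42.5 and 17.8 FPKM, and its co-receptor Cd14 at 2786 and 1046 FPKM. Ticam2, the adaptor that links Tlr4 to interferon induction, was at 40.9 and 19.0 FPKM. In untreated cells Cd14 was not lower (375 and 428 FPKM), and the log2 ratio of Tlr4 was -0.47. Tlr2 (286 and 260 FPKM) and Tlr3 (105 and 113 FPKM), named after their values were seen, differed by under 2-fold.

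**Figure D2:**
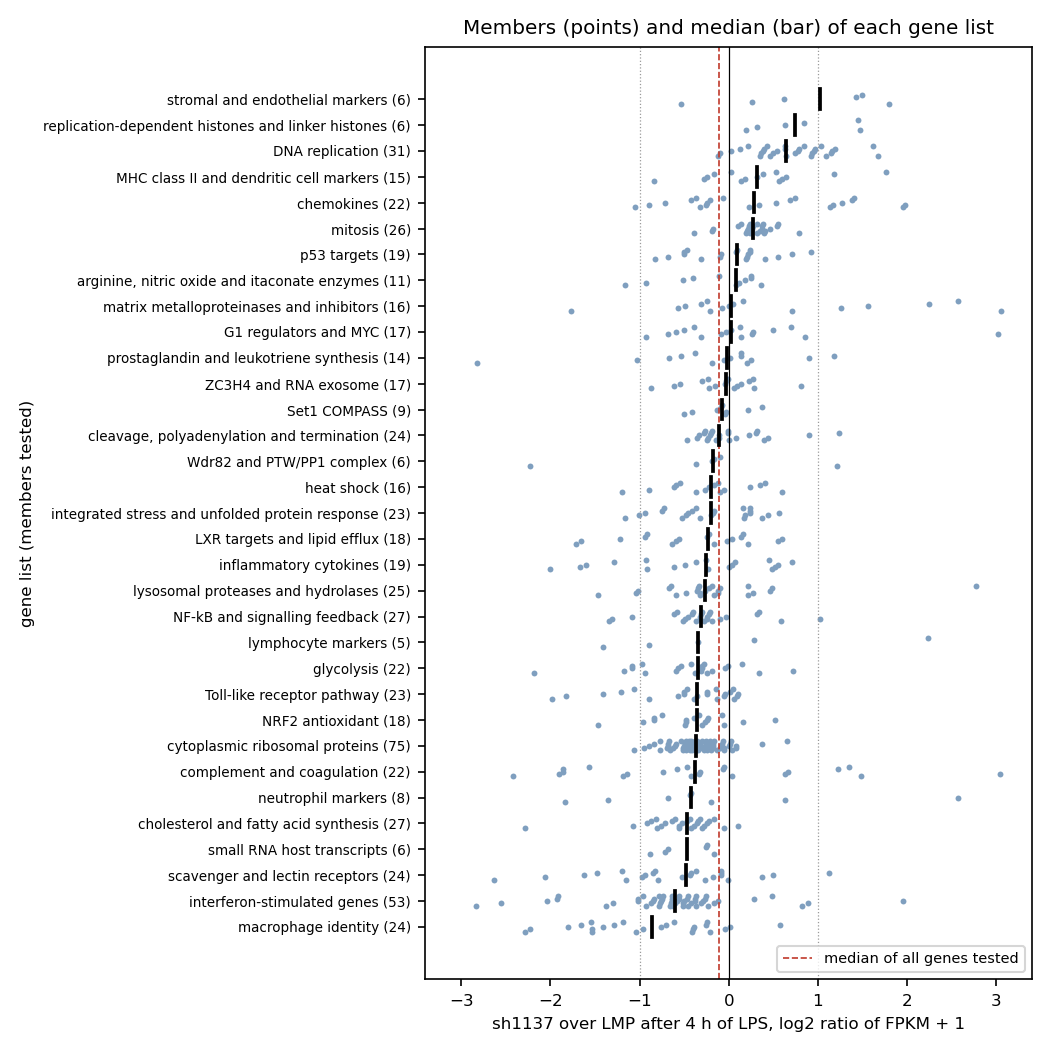
Points are the genes of each list tested in polyA RNA after 4 h of LPS, by log2 ratio of sh1137 over LMP (FPKM + 1). Black bars are list medians, the dashed line is the median of all genes tested (-0.10), and dotted lines mark 2-fold. Macrophage identity genes (median -0.86) lie at the bottom, and stromal markers (6 genes tested) and DNA replication genes (median 0.64) near the top. Lists with under 5 genes tested are not drawn.

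Genes were also grouped by their response to LPS in newly made RNA of control cells, from libraries that are not part of the polyA pair. LPS-induced genes were at least 4-fold higher in 4sU RNA at 4 h than without LPS, and LPS-repressed genes at least 4-fold lower, with at least 5 FPKM in the higher library. Of 963 LPS-induced genes tested in polyA RNA, 121 were at least 2-fold lower with sh1137 and 40 at least 2-fold higher, with a median log2 ratio of -0.38. These were 12.6% and 4.15% of the class, beside 2.85% and 3.59% of all genes. Of 195 LPS-repressed genes, 7 were lower and 33 (16.9%) higher, with a median of 0.41. In the untreated pair 57 of 825 LPS-induced genes were lower and 30 higher, and of 237 LPS-repressed genes 9 were lower and 43 higher. The remaining 8523 classed genes had a median of -0.12. Both kinds of cell showed the LPS response. The median polyA log2 change from untreated to LPS was 2.40 in control cells and 2.15 with sh1137 for the LPS-induced genes, and -1.51 and -1.43 for the LPS-repressed ones. The classes were chosen on control cells alone. The larger change in control cells and the direction of the class ratios may follow in part from that choice.

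**Figure D3:**
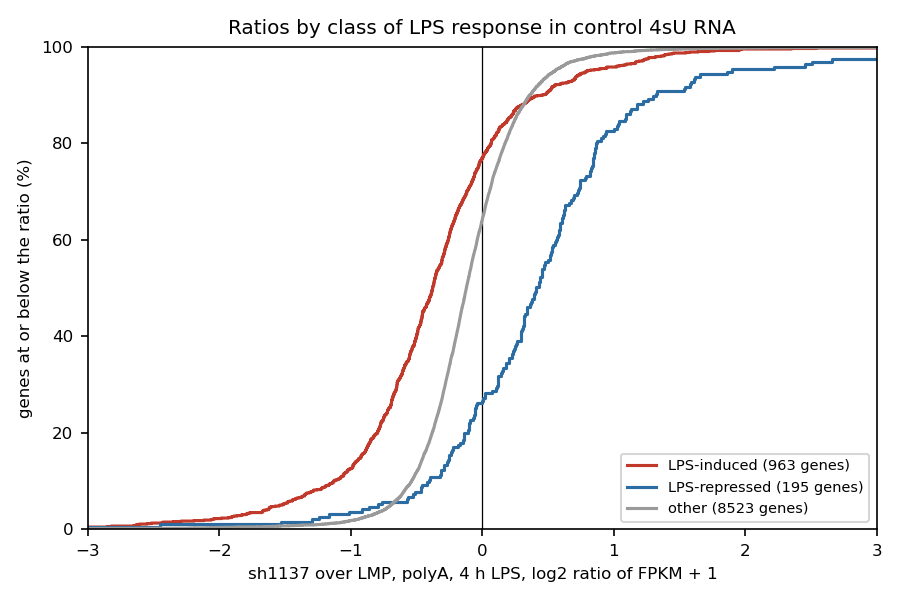
Cumulative share of genes (percent, vertical) by log2 ratio of sh1137 over LMP in polyA RNA at 4 h of LPS (horizontal), for genes induced (red, 963), repressed (blue, 195) or neither (grey, 8523) by LPS in control 4sU RNA. The induced curve lies left of the others through most of its range and the repressed curve right of them.

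Among interferon-stimulated genes, many of which restrict viruses, 48 of 53 tested had a log2 ratio below 0. So did 741 of the 963 LPS-induced genes and 5474 of the 8523 genes in neither LPS class. Over all genes 2.85% were at least 2-fold lower and 3.59% higher, and over the LPS-induced genes 12.6% and 4.15%. Of the 53, 9 were at least 2-fold lower and 1 at least 2-fold higher, with a median of -0.61. The lowest was Ifi27l2a, at 1140 FPKM in the control and 159 FPKM with sh1137 after LPS and at 859 and 128 FPKM without LPS, with bounds that did not overlap. Slfn4, a Schlafen gene of myeloid cells, was at 161 and 26.6 FPKM, and Ly6a, which encodes the surface protein Sca-1, at 217 and 52.4 FPKM. Oasl1, of the oligoadenylate synthetase family, was at 913 and 239 FPKM, and Isg15, a ubiquitin-like protein, at 2289.5 and 928 FPKM. The member past 2-fold the other way was Ifnb1, interferon beta itself, at 10.1 FPKM in the control and 42.0 FPKM with sh1137 after LPS. In untreated cells it was at 0.0362 and 0.0455 FPKM, and in 4sU RNA at 4 h it was at 7.05 and 20.6 FPKM. In untreated cells 12 list members were at least 2-fold lower, beside 2.58% of all genes. In the 4sU pair the median was -0.07, with 3 lower and 3 higher, beside 3.23% and 6.47% of all genes. Isg15 was named after its values were seen.

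Cytokine and chemokine genes differed from each other. Among 19 cytokine genes tested, 4 were past 2-fold on the lower side and 0 on the higher side (median log2 ratio -0.26). The shares over all genes were 2.85% and 3.59%. Il27, which encodes a subunit of interleukin-27, was at 530 FPKM in the control and 166 FPKM with sh1137, and Tnfsf15, a TNF family cytokine, at 102 and 33.0 FPKM. Vegfa, an angiogenic factor, was at 12.3 and 2.32 FPKM. Il12b, the p40 subunit of interleukin-12, was at 160 and 84.1 FPKM, under 2-fold. Tnf itself was at 1428 and 1194 FPKM, a log2 ratio of -0.26. Among 22 chemokine genes, 7 were past 2-fold on the higher side and 1 on the lower side (median 0.28). Ccl8, a monocyte attractant, was at 62.1 FPKM in the control and 246 FPKM with sh1137. Its values in untreated cells were 17.5 and 17.6 FPKM, and in 4sU RNA at 4 h they were 5.02 and 148 FPKM. Ccl2, the ligand of Ccr2, was at 1232 and 2762 FPKM after LPS. Cxcl3, a neutrophil attractant, was at 37.5 and 99.4 FPKM, and Ccl17 and Ccl22, ligands of Ccr4, at 0.749 and 5.77 FPKM and at 4.35 and 11.9 FPKM. In 4sU RNA Cxcl3 (240 and 150 FPKM) and Ccl22 (97.6 and 55.8 FPKM) were below the control instead. The lower chemokine was Ccl5, which attracts T cells and monocytes, at 6662 and 3209 FPKM, named after its values were seen.

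The 27 signalling feedback genes tested had a median log2 ratio of -0.31. Of these, 3 were at least 2-fold lower, and Cish, a suppressor of cytokine signalling, was higher (2.32 and 5.75 FPKM). Beside these stand 2.85% lower and 3.59% higher over all genes. The lower genes were Dusp1, a phosphatase of MAP kinases (28.1 and 10.5 FPKM), Irak3, a brake on Toll-like receptor signalling (218 and 87.5 FPKM), and Socs3, a suppressor of interleukin-6 signalling (366 and 173 FPKM).

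The genes with the highest ratios were mostly low in the control. Lrrc27, a leucine-rich repeat gene, had the highest of those with other names, at 2.80 FPKM in the control and 73.9 FPKM with sh1137, 19.7-fold higher on the FPKM + 1 scale. In untreated cells it was at 7.48 and 91.7 FPKM and in 4sU RNA at 3.68 and 35.3 FPKM. Its deposited locus also holds Stk32c, a kinase gene under 1 FPKM in both libraries. Ctsk, a lysosomal collagenase known from osteoclasts, was at 3.46 FPKM in the control and 29.4 FPKM with sh1137 after LPS and at 3.28 and 30.9 FPKM without it. Tnfrsf8, the CD30 receptor, was at 1.83 and 19.4 FPKM, and Hmcn2, a large matrix protein, at 2.67 and 25.3 FPKM. These 4 genes were higher in each of the 3 pairs. Raet1d, a ligand of the NKG2D receptor of natural killer cells, was at 3.12 and 21.9 FPKM. Ccnd1, the cyclin that carries cells through G1, was at 4.14 and 40.6 FPKM after LPS and at 8.10 and 128 FPKM without it, and its locus is shared with Oraov1. Plau was at 7.84 and 64.4 FPKM in untreated cells. In 4sU RNA Ccnd1 (9.68 and 14.8 FPKM) and Plau (8.67 and 14.2 FPKM) were under 2-fold. Cxcr4, the receptor for Cxcl12, was high and alike in untreated cells (148 and 137 FPKM) and after LPS was at 3.70 FPKM in the control and 25.7 FPKM with sh1137.

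**Figure D4:**
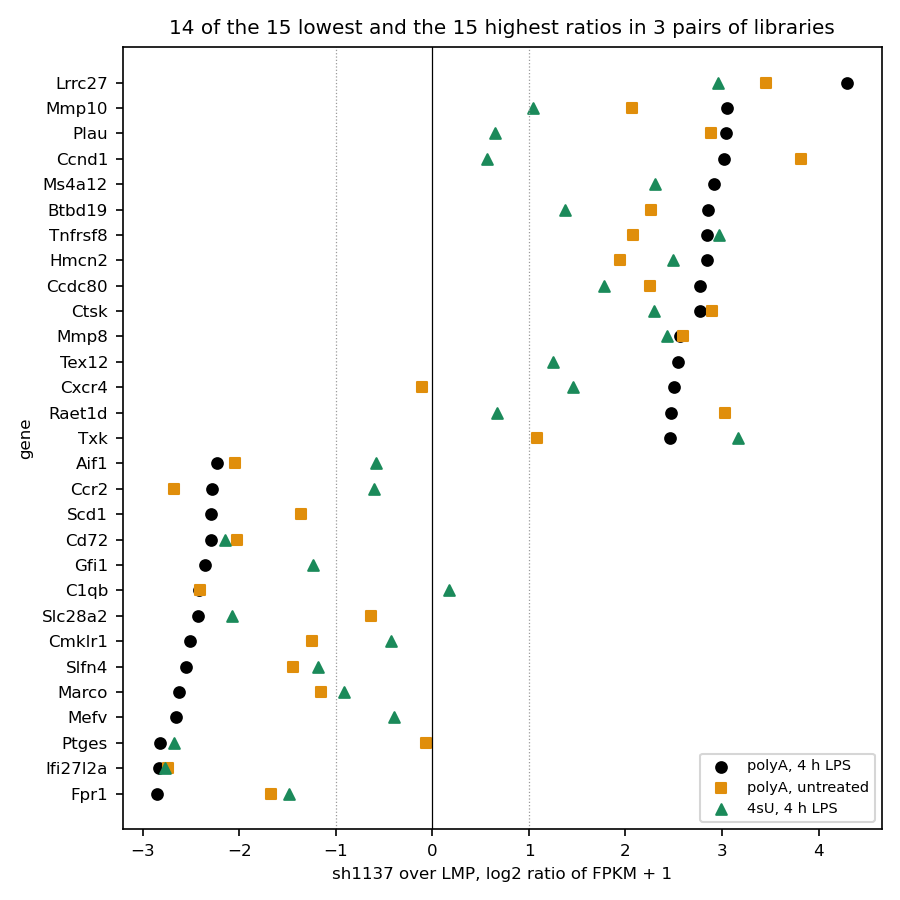
Log2 ratio of sh1137 over LMP (FPKM + 1, horizontal) for 14 of the 15 lowest and the 15 highest genes of the polyA pair at 4 h of LPS (circles), in the untreated polyA pair (squares) and in 4sU RNA at 4 h (triangles). A missing symbol is a gene not tested in that pair, and dotted lines mark 2-fold. Circles chose the genes. The squares of Ptges and Cxcr4 and the triangle of C1qb sit near 0, far from their circles.

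Of the 15 highest genes, 13 could be tested in untreated cells, and 12 of these were at least 2-fold higher there. Of the 15 lowest, 13 could be tested and 11 were at least 2-fold lower. In the 4sU pair, 12 of the 15 highest genes were at least 2-fold higher, and 8 of the 14 lowest that could be tested were at least 2-fold lower. The ratio was nearer 0 in 4sU RNA for 13 of the 15 highest and 14 of the 14 lowest. These genes were chosen as the extremes of the polyA pair, so ratios nearer 0 in another pair follow in part from the choice.

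Matrix metalloproteinases, which cut collagen and other matrix proteins, were past 2-fold mainly in a cluster on chromosome 9. Of 16 genes of the family and its inhibitors tested, 5 were at least 2-fold higher and 1 lower, but the median log2 ratio was 0.02. Over all genes 3.59% were higher and 2.85% lower. The deposited table places 10 metalloproteinase genes on chromosome 9 between 7272513 and 7699585 (mm9). Of these, 5 were tested and 4 were at least 2-fold higher. Mmp10, a stromelysin, was at 0.149 FPKM in the control and 8.54 FPKM with sh1137. Mmp8, a collagenase of neutrophils, was at 7.20 and 47.5 FPKM, and Mmp27 at 8.14 and 42.5 FPKM. For Mmp8 the values without LPS were alike, at 6.38 and 43.5 FPKM. Mmp12, the macrophage elastase, was at 43.8 and 131 FPKM in polyA RNA and, the other way, at 110 and 80.2 FPKM in 4sU RNA. The 4sU log2 ratios of Mmp10, Mmp8, Mmp27 and Mmp13 were 1.05, 2.44, 2.86 and 0.65. Mmp13, a collagenase at the end of the cluster, was at 730 and 1190.5 FPKM after LPS and at 1.27 and 18.6 FPKM without it. Mmp1a, Mmp1b, Mmp3, Mmp7 and Mmp20 were under 1 FPKM in both libraries. Outside the cluster, Mmp14, a membrane-bound metalloproteinase on another chromosome, was lower, at 118 and 34.0 FPKM. The cluster was chosen after its values were seen.

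The promoters of the 3 neighbours with the highest ratios are shown because they moved together. Capitals mark TGANTCA, the motif of AP-1 (Fos and Jun proteins), or GAGGAAGT, that of PU.1, on either strand.
Mmp10, chr9:7502092-7502391, plus strand: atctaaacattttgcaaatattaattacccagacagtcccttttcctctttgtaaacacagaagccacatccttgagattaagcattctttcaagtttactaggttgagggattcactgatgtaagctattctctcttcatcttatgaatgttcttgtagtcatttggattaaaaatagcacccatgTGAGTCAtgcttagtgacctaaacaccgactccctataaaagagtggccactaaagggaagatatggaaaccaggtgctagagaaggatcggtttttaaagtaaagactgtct
Mmp8, chr9:7558179-7558478, plus strand: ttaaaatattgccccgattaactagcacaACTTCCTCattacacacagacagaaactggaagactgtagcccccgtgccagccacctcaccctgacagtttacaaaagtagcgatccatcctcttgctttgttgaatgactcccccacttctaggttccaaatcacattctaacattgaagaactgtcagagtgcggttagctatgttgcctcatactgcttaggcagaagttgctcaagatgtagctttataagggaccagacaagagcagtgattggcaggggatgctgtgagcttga
Mmp27, chr9:7571146-7571445, plus strand: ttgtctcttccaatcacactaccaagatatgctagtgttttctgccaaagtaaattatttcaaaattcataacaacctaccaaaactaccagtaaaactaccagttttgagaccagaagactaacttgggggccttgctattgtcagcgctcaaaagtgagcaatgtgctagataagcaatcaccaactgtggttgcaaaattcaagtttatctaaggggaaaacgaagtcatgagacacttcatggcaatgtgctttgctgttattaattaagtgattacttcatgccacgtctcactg
The window of Mmp10 held the AP-1 letters, from base -63 to the start site. The window of Mmp8 held the PU.1 letters, from base -221, and that of Mmp27 held neither. Of all 32851 windows 7.81% held TGANTCA. It was found for 4 of the 12 highest genes with an entry (Hmcn2, Mmp10, Ms4a12 and Tnfrsf8) and 1 of the 12 lowest (Slfn4). A gene counted if any of its windows held the letters, while the 7.81% is a share of windows. Ccdc80, Ccnd1, Plau, Ifi27l2a and Scd1 had no entry. A match is a description of the letters in the window and not a binding site.

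Members of other neighbouring families went in opposite directions. The 17 Ms4a genes of chromosome 19, which encode membrane proteins of several spans, include 10 that were tested. Of these, 3 were at least 2-fold higher and lie to one side of the others tested, and 6 were at least 2-fold lower. The higher genes were Ms4a8a (0.280 and 3.60 FPKM), Ms4a12 (listed at 0 in the control and at 6.56 FPKM with sh1137) and Ms4a14 (16.0 and 52.0 FPKM). Ms4a12 shares its locus with 3 other genes. The lower ones were Ms4a4b, Ms4a4c, Ms4a4d, Ms4a6b, Ms4a6c and Ms4a6d, of which Ms4a6b (548 and 133 FPKM) was the lowest. Ms4a7, between the higher and the lower genes, was at 991 and 550 FPKM. In 4sU RNA the 3 higher genes had log2 ratios from 2.31 to 2.67. Of the 6 lower ones only Ms4a4c was past 2-fold there (-1.18), and Ms4a4b was at 0.16. Without LPS Ms4a14 was at 0.30, and Ms4a8a and Ms4a12 were not tested. The 6 lower genes had untreated polyA log2 ratios from -1.69 to -0.21. The Ifi27 genes of chromosome 12 were split as well. Ifi27l1 was higher (30.8 FPKM in the control and 144 FPKM with sh1137), while its neighbour Ifi27l2a was lower. Ifi27l1 and Ifi27l2a kept these opposite directions in untreated cells (log2 ratios 1.82 and -2.74) and in 4sU RNA (1.58 and -2.77). These families were chosen after their values were seen, and of all genes 3.59% were higher and 2.85% lower after LPS.

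**Figure D5:**
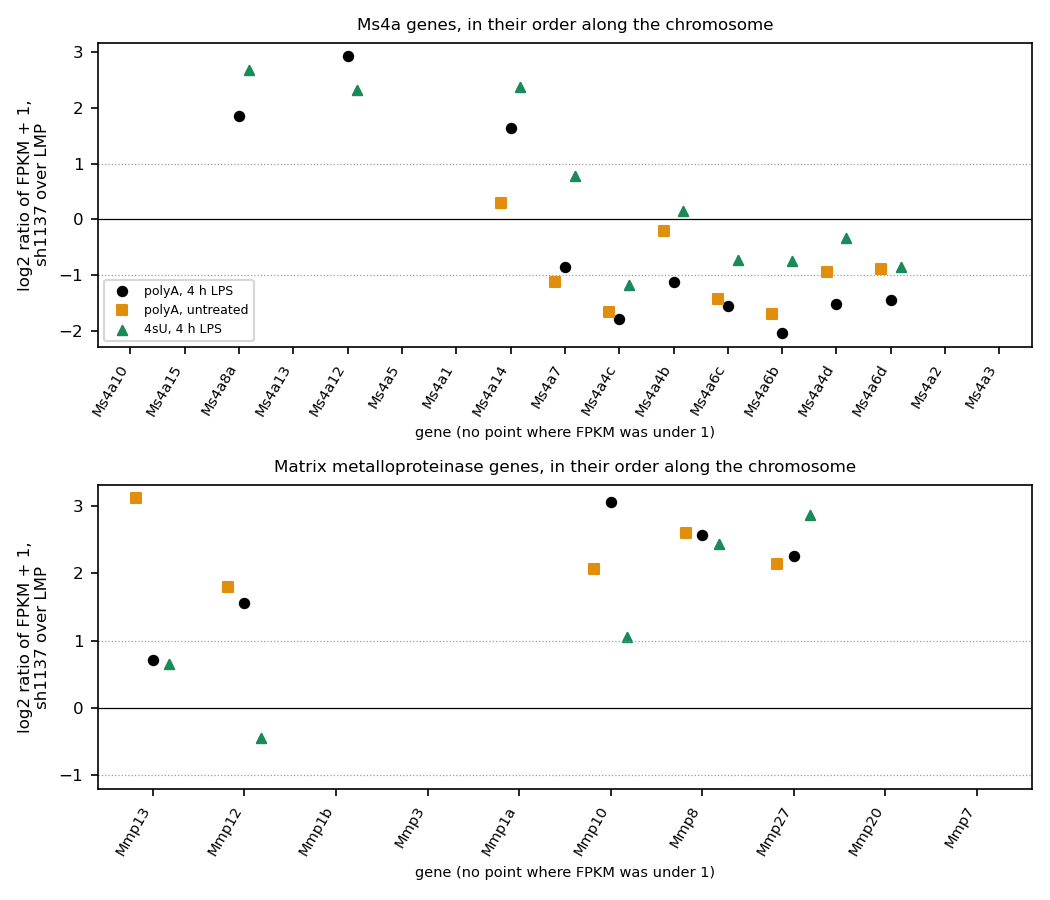
Log2 ratio of sh1137 over LMP (FPKM + 1, vertical) for Ms4a genes (top) and the metalloproteinase cluster (bottom), drawn in chromosome order with equal spacing. Circles are polyA RNA at 4 h of LPS, squares untreated polyA RNA and triangles 4sU RNA at 4 h, and genes under 1 FPKM have no symbol. In polyA RNA after LPS, Ms4a8a, Ms4a12 and Ms4a14 lie above the upper dotted 2-fold line. The genes from Ms4a4c to Ms4a6d lie below the lower one in that pair.

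Some genes of lipid handling differed in direction between polyA RNA and newly made RNA. Apoe, the lipoprotein that carries cholesterol out of macrophages, was at 4026 FPKM in the control and 1228 FPKM with sh1137 in polyA RNA, and at 281 and 577 FPKM in 4sU RNA. Pltp, the phospholipid transfer protein, was at 464 and 146 FPKM in polyA RNA and at 10.0 and 29.9 FPKM in 4sU RNA. Apoc2, an activator of lipoprotein lipase, was at 88.7 and 37.6 FPKM and at 7.48 and 22.3 FPKM. Apoe, Pltp and Apoc2, targets of the oxysterol receptor LXR, were the 3 of 18 genes of that list at least 2-fold lower in polyA RNA. In 4sU RNA 7 of the list were at least 2-fold higher. Of all genes, 2.85% were lower in the polyA pair and 6.47% higher in the 4sU pair. Of 27 cholesterol and fatty acid synthesis genes tested, 26 had a log2 ratio below 0 (median -0.47, against -0.02 in untreated cells), and 2 were at least 2-fold lower. Below 0 as well were 5474 of the 8523 genes in neither LPS class. Scd1, which desaturates fatty acids, was at 12.9 FPKM in the control and 1.84 FPKM with sh1137.

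Glycolysis genes were mostly below the control after LPS and above it in untreated cells, a difference that was not tested. The median log2 ratio of 22 genes was -0.35 after LPS, with 4 at least 2-fold lower, and 0.36 in untreated cells, with 1 lower. Of all genes 2.85% were at least 2-fold lower after LPS and 2.58% in untreated cells. Pgk1, phosphoglycerate kinase, was at least 2-fold lower in each pair, at 184 FPKM in the control and 39.6 FPKM with sh1137 after LPS, 137 and 36.2 FPKM without LPS, and 198 and 40.1 FPKM in 4sU RNA. Hif1a, the hypoxia factor that drives glycolysis genes, was at 230 and 108 FPKM after LPS and at 30.2 and 35.7 FPKM without it. Slc16a3, a lactate exporter, was at 82.0 and 35.7 FPKM, and Pfkfb3, which makes an activator of phosphofructokinase, at 130 and 60.9 FPKM. Of 75 cytoplasmic ribosomal protein genes 67 had a log2 ratio below 0 with a median of -0.37, and 1, Rpl22l1 (8.14 and 3.39 FPKM), was at least 2-fold lower. The genes in neither LPS class, with 5474 of 8523 below 0, had a median of -0.12. None of the 13 mitochondrially encoded genes had a usable estimate.

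DNA replication genes were mostly above the control in polyA RNA. After LPS 29 of 31 had a log2 ratio above 0, 7 were at least 2-fold higher, and the median was 0.64. In untreated cells 23 were at least 2-fold higher, with a median of 1.25. Gins1, a subunit of the replicative helicase, was at 5.60 FPKM in the control and 20.1 FPKM with sh1137 after LPS, and Cdt1, which loads that helicase, at 3.39 and 12.5 FPKM. The helicase subunits Mcm3 (8.74 and 20.6 FPKM) and Mcm5 (11.6 and 27.7 FPKM) were higher too. The median of the 4sU pair at 4 h went the other way, at -0.46, with 1 gene at least 2-fold higher and 3 lower. The higher gene was Cdt1 (7.05 and 27.1 FPKM), and Gins1 was above the control as well (8.55 and 15.0 FPKM). Mitosis genes had smaller ratios, with a median of 0.27 and 0 of 26 past 2-fold. Of 19 p53 target genes tested 0 were past 2-fold, with a median of 0.09. At the shares over all genes, 3.59% higher and 2.85% lower, lists this short would hold few such genes. Heat shock and unfolded protein response genes had medians of -0.19 and -0.20, with 1 of 16 and 2 of 23 at least 2-fold lower.

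The effect of the hairpin after LPS was set against its effect without LPS gene by gene. The LPS ratio exceeded the untreated ratio by at least 2-fold for 353 of 12767 genes (2.76%) and fell short of it by as much for 334 (2.62%). These genes needed 1 FPKM in any of the 4 polyA libraries, and 11330 of them were tested in both pairs. For a gene under 1 FPKM without LPS, the pseudocount holds the untreated ratio near 0. The difference is then little more than the LPS ratio. At the top were Cxcr4, Prdm9, Tex12, Adck3 and Steap4. Prdm9, a histone methyltransferase of meiosis, was at 1.47 and 0.988 FPKM without LPS and at 4.74 FPKM in the control and 27.4 FPKM with sh1137 after it. Steap4, a metalloreductase, was at 0.0734 and 0.0257 FPKM without LPS and at 3.26 and 18.7 FPKM after it. Its untreated ratio was held near 0 in that way. At the other end were Ptges, Tnf, Ch25h, Ccl7 and an entry of Uck2. Tnf was at 3.93 FPKM in the control and 25.7 FPKM with sh1137 without LPS, and the chemokine gene Ccl7 at 3.92 and 36.8 FPKM, while after LPS both were within 2-fold. Ch25h, which makes 25-hydroxycholesterol, was at 1.83 and 8.36 FPKM without LPS and at 599 and 311 FPKM after it. The Uck2 entry, a second one of that symbol, was at 86.7 FPKM in the untreated sh1137 library and listed at 0 in the 3 other polyA libraries.

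The calls were then compared across pairs that share no library. Only genes tested in each pair compared were used, so the lists are shorter than those above. Of 11330 genes tested in both polyA pairs, 291 were at least 2-fold higher after LPS and 281 without it. Higher in both were 134, 46.0% of the LPS list and 47.7% of the untreated list. At least 2-fold lower were 305 after LPS and 271 without it. Lower in both were 124 genes, 40.7% and 45.8% of the lists. Opposite calls were made for 12 of the genes higher after LPS and 5 of those lower. In polyA and 4sU RNA at 4 h, 11579 genes were tested in both. Of these, 384 were higher in polyA RNA and 541 in 4sU RNA, with 231 in both (60.2% and 42.7% of the lists). Lower were 309 and 285, with 77 in both (24.9% and 27.0%). Opposite calls in 4sU RNA were 12 for the higher and 24 for the lower genes. Of 10992 genes tested in all 3 pairs, 256 were higher and 280 lower in polyA RNA after LPS. In all 3 pairs 63 genes were higher and 31 lower. The 47 higher ones outside the small RNA, clone and predicted names include Lrrc27, Ctsk, Tnfrsf8, Hmcn2, Txk, Mmp8, Mmp10 and Mmp27. The 25 lower include Fpr1, Cd72, C3ar1, Tlr1, Slfn4, Ifi27l2a and Pgk1.

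The higher and the lower genes differed in what they were in control cells. In the untreated control library, which took no part in the calls, the 281 higher genes without small RNA, clone or predicted names had a median of 1.57 FPKM and 71.5% of them were under 5 FPKM. For the 258 lower genes chosen the same way the median was 20.9 FPKM and 19.4% were under 5 FPKM, and for genes past 2-fold in neither direction the median was 11.7 FPKM. A gene low in the control could pass the minimum of 1 FPKM only through the sh1137 library, so the low level of the higher genes follows in part from the filter. Of the lower genes 103 (39.9%) were LPS-induced, against 28 (9.96%) of the higher genes and 7.22% of the rest. LPS-repressed were 24 (8.54%) of the higher genes and 1 (0.388%) of the lower. These shares are of all genes in each group, also those too low in control 4sU RNA to be classed. With all names kept, 40 of the 433 higher genes were LPS-induced, 33 LPS-repressed and 105 in neither class. Of the 344 lower genes these were 121, 7 and 150. More of the higher genes were thus left unclassed, which lowers their shares more.

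A fit over both polyA pairs gave the only test available. The limma model had terms for LPS and hairpin and 1 residual degree of freedom, so its error is the spread of the hairpin ratio between untreated and LPS-treated cells and not between replicates. Of 12767 genes it called 0 (0%) higher and 1 (0.00783%) lower at a Benjamini-Hochberg adjusted p under 0.05, while 922 higher and 1524 lower genes had an unadjusted p under 0.05. The single call, named after its values were seen, was SNORD18, a small nucleolar RNA, with 529 and 963 FPKM in the control libraries, listed at 0 in both sh1137 libraries, and a limma adjusted p of 0.0477. Its locus holds 6 genes, and its deposited bounds after LPS overlapped. In 4sU RNA it was at 3739 FPKM in the untreated control and at 0 in untreated sh1137 cells. At 4 h of LPS both 4sU libraries listed it at 0. The 30 genes with the highest and lowest ratios had limma adjusted p values from 0.0712 to 0.390. With a pseudocount of 0.1 FPKM limma called 41 genes higher and 55 lower, and with a minimum of 5 FPKM it called 12 and 19.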

How the data were processed

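The authors deposited FPKM values with a lower bound, an upper bound and a status for each gene and library, per the file headers. The submitters' processing notes name TopHat 1.3.1, Cufflinks 2.1.1, Cuffdiff 2.1.1 and build mm9. Nothing on annotation, library scaling or the level of those bounds is given in the sources used here. The libraries are unstranded, so reads of overlapping genes cannot be told apart. Of 36806 entries, a repeated symbol was taken from the entry with the highest mean polyA FPKM. Ratios were log2((FPKM + 1)/(FPKM + 1)) within a table, for genes with status OK in both libraries and at least 1 FPKM in either, and a gene was called at 2-fold. limma 3.58.1 in R 4.3.3 fitted LPS and hairpin over the 4 polyA libraries, with intensity trend and Benjamini-Hochberg adjustment. The ratio and limma code was tested on simulated data. Named genes are the Wdr82 and Set1 complexes, the 15 highest and 15 lowest ratios, up to 5 members of each of 36 lists by size of ratio, and the 5 largest differences between LPS and untreated ratios each way, with at least 5 FPKM and, outside the lists, no small RNA, clone, predicted or pseudogene name. Members and lists were chosen with earlier results of these data known, and genes named beyond these rules were chosen after their values were seen. Alternatives were other pseudocounts, minimums, centring, gene names and single-gene loci. Some genes that these rules name are not reported here, though they stay in the counts.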

Additional observations from a re-analysis of the deposited data

Results flagged for a closer look

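Among the genes chosen by the naming rules and with at least 5 FPKM after LPS, 2 had hairpin ratios in polyA RNA past 2-fold in opposite directions before and after LPS. Adck3, a mitochondrial kinase-like gene of coenzyme Q synthesis, was at 6.38 FPKM in the control and 2.25 FPKM with sh1137 in untreated cells and at 2.97 and 8.04 FPKM after LPS. Its log2 ratio after LPS was 2.37 above the untreated one, and its deposited locus holds 2 genes. Ass1, which makes argininosuccinate, was at 3.43 and 8.41 FPKM in untreated cells and at 49.1 and 21.3 FPKM after LPS, a difference of -2.25 between the log2 ratios. These differences were not tested, since each pair has 1 library a side.

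Among the genes chosen by those rules, 5 were past 2-fold in opposite directions in polyA RNA and 4sU RNA at 4 h of LPS, lower with sh1137 in polyA RNA and higher in newly made RNA. The polyA log2 ratio minus the 4sU log2 ratio was -2.67 for Apoc2, -2.75 for Apoe and -3.15 for Pltp, whose FPKM values stand above. For Pla2g7, which encodes a secreted phospholipase that degrades platelet-activating factor, it was -2.79, with 624 and 305 FPKM in polyA RNA and 18.7 and 65.5 FPKM in 4sU RNA. For Vegfa it was -3.21, with 12.3 and 2.32 FPKM in polyA RNA and 4.05 and 10.6 FPKM in 4sU RNA. Pla2g7, Pltp and Apoc2 share their deposited loci with other genes. These differences were not tested either.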

How the results depend on the processing

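The number of genes past 2-fold depended on how low values were treated, and the cause was not tested. Against 433 higher and 344 lower genes, a pseudocount of 0.1 FPKM gave 738 and 487, a pseudocount of 5 FPKM gave 125 and 225, and a minimum of 5 FPKM gave 245 and 311. Without small RNA, clone and predicted names there were 281 and 258. Genes alone in their deposited locus, an alternative added after seeing the data, held 241 and 214, out of 7201 genes tested. Dropping the minimum gave 433 and 344 by construction. List medians moved by less than 1.5-fold in 35 of 35 lists with either pseudocount, the higher minimum and centring. For centring this was so by construction, since the same median of -0.10 was taken from every ratio. With single-gene loci the medians of 33 of 34 lists moved by less than 1.5-fold. The exception was the metalloproteinase list, with a median of 0.71 over 9 genes in place of 0.02. Of 192 named genes none changed direction past 2-fold, but this outcome was fixed in advance. A pseudocount cannot change the sign of a ratio, and centring on a median of -0.10 cannot reverse a gene past 2-fold. By 1.5-fold or more, 9 of the named genes moved with a pseudocount of 0.1 FPKM and 25 with 5 FPKM. For limma, a pseudocount of 0.1 FPKM gave 41 higher and 55 lower calls, a minimum of 5 FPKM gave 12 and 19, and one prior variance for all genes gave 0 lower. Leaving out a library leaves no pair or no residual degree of freedom, so that alternative was not run. No paired analysis was possible because the labels give no replicate numbers within these groups. The depth is unknown, so no counting interval could be set on low values.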

Other observations

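Several lists not described above are given here, beside 3.59% of all genes at least 2-fold higher and 2.85% at least 2-fold lower. Of 18 NRF2 antioxidant genes 16 had a log2 ratio below 0 after LPS (median -0.36), while the median in untreated cells was 0.15. After LPS 5474 of the 8523 genes in neither LPS class were below 0. Of the NRF2 genes only Srxn1, which repairs oxidised peroxiredoxins, was past 2-fold. It was at 100 FPKM in the control and 35.7 FPKM with sh1137 after LPS and at 31.4 and 32.0 FPKM without it. Hmox1, which breaks down heme, was at 463 and 259 FPKM after LPS and at 196 and 301 FPKM without it. Of 25 lysosomal protease and hydrolase genes 3 were at least 2-fold lower and 1, Ctsk, higher. Ctsc, a protease that activates granule enzymes, was at 2439 and 882 FPKM in polyA RNA after LPS and at 1185 and 1329 FPKM in 4sU RNA.

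Prostaglandin and leukotriene genes differed from each other, with 2 of 14 at least 2-fold lower and 1 higher. The higher one was Ptgs1, the constitutive cyclooxygenase, at 4.28 FPKM in the control with a log2 ratio of 1.18, while Ptgs2, the inducible one, was at 289 and 222 FPKM. Of the 8 Schlafen genes tested on chromosome 11, 2 were at least 2-fold lower, Slfn4 and Slfn1 (66.3 and 16.9 FPKM). Of the 10 Clec4 and Clec12 lectin genes tested on chromosome 6, 4 were at least 2-fold lower. Clec12a, an inhibitory receptor for uric acid crystals, was at 237 and 106 FPKM in polyA RNA and at 231 and 110 FPKM in 4sU RNA. Clec4a2 was at 137 and 59.0 FPKM in polyA RNA and at 24.5 and 28.1 FPKM in 4sU RNA. These genes were chosen after their values were seen.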
